A study of Homo sapiens with 8 samples.

Results

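The genes examined here encode the nuclear subunits of the 5 oxidative phosphorylation complexes. They were taken by symbol, as rows of the expression table that carried exactly 1 gene symbol of the families NDUFA, NDUFB, NDUFC, NDUFS and NDUFV (complex I), SDHA to SDHD (complex II), UQCR and CYC1 (complex III), COX4 to COX8 (complex IV) and ATP5 (complex V). This gave 73 genes of the 22109 tested, of which 30 belong to complex I, 2 to complex II, 8 to complex III, 17 to complex IV and 16 to complex V. Only NDUFA9 had more than 1 such row, and the brighter row stands for it, and the pseudogene UQCRBP1 was left out. Another 14 coding genes of these families had no row of their own and were not analysed here, among them SDHA, SDHB and the Rieske protein gene UQCRFS1. Complex II is therefore represented by its membrane anchors SDHC and SDHD.

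All 8 samples were of MDA-MB-231, an established line of triple-negative breast cancer with mesenchymal character, grown in high-glucose medium and harvested at 24 h. Total RNA of each sample was hybridised to 1 Affymetrix Human Gene 2.1 ST array. The control group held 3 samples with no treatment, the low-dose group 3 samples and the high-dose group 2 samples. By the titles and the treatment protocol, the treated cells received a root extract of wild yam (Dioscorea villosa) at 15 µg/mL (low) or 30 µg/mL (high), doses described as sublethal. The source names disagree: there the low group is listed with Boswellia serrata extract (128 µg/mL) and the high group with 3-O-acetyl-β-boswellic acid (46 µg/mL). What the cells received is therefore not settled, and low and high dose are used as names of the groups. The crude extract was dissolved in ethanol, and no ethanol is named for the controls. Separate cultures are not stated for the replicates, so p-values measure the spread between these samples, which may be technical.

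Oxidative phosphorylation takes place in the inner mitochondrial membrane. Complexes I and II pass electrons from NADH and succinate to ubiquinone, complex III passes them on to cytochrome c, and complex IV hands them to oxygen. Complexes I, III and IV pump protons, and complex V, the ATP synthase, uses the resulting gradient to make ATP. All complexes except complex II combine nuclear subunits with subunits encoded by mitochondrial DNA, and many nuclear subunit genes carry promoter sites for the factors NRF1, GABPA (of the ETS family) and YY1. Many tumour cells, this line included, rely strongly on glycolysis in culture.

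The promoters of 59 of the 73 genes were found by Entrez gene identifier in a RefSeq table (assembly GRCh38.p14) that spans 250 bases before to 50 bases after each start. The core NRF1 motif GCGCATGC, read on both strands, occurred in 12 of the 59 (20.3%), against 3.27% of all 27305 promoters of the same length and 4.26% of the 15842 promoters of coding genes. The ETS motif CCGGAAGT occurred in 7 (11.9%, against 4.44% of all promoters and 6.19% of those of coding genes), and the YY1 motif AAGATGGC in 10 (16.9%, against 3.03% and 3.91%). At least 1 of these 3 motifs was present in 24 promoters (40.7%, against 9.94% and 13.2%). The CCAAT box (CCAAT) occurred in 35.6% of the members' promoters, against 35.7% of all and 36.4% of those of coding genes. The SP1 motif GGGCGG occurred in 61.0%, against 44.6% and 58.5%. Among genes whose array values are described further on, NDUFS3, UQCRC2, ATP5MG, NDUFB11, COX4I1 and COX8C had no NRF1, ETS or YY1 motif. UQCRC1 had only YY1. NDUFS3, UQCRC2 and ATP5MG had the most negative high-dose changes of complexes I, III and V, and SDHD and COX5B those of II and IV. The 3 promoters below belong to subunits of 3 different complexes also described there. All carry the NRF1 core, so they do not stand for the other genes. Each is written 5′ to 3′ on the plus strand, with matches to the NRF1 and ETS motifs in capitals.
NDUFS6: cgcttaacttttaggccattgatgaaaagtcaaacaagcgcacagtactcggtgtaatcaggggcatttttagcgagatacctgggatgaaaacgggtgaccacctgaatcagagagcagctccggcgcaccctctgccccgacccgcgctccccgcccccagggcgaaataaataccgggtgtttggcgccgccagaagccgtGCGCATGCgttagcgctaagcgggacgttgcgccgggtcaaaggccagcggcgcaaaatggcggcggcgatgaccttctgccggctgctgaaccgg
SDHD: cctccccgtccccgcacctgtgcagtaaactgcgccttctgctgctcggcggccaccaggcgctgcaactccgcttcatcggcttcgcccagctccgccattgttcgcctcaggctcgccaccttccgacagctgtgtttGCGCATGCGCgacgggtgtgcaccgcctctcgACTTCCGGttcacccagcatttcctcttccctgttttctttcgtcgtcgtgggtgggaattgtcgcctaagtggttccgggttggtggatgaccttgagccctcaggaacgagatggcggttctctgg
COX5B: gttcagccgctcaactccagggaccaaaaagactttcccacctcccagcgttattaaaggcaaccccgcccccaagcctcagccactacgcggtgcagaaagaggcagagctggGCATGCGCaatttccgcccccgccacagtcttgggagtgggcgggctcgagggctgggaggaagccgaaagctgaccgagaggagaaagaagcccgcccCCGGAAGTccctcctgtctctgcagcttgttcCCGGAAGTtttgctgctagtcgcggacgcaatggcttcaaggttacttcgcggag

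These windows lie at chr5:1801157-1801456 (NDUFS6), chr11:112086623-112086922 (SDHD) and chr2:97645812-97646111 (COX5B). The NDUFS6 promoter has 1 NRF1 core 46 bases before the start. In the SDHD promoter the core was matched on both strands, since its 2 orientations overlap in a palindromic run, and an ETS motif on the minus strand follows. The COX5B promoter has 1 NRF1 core and 2 ETS motifs. A match is a description of letters and shows no binding. In the high-dose comparison described below, the median change was -0.46 for the 12 genes with an NRF1 core and -0.36 for the 47 without it, and at the low dose the medians were -0.27 and -0.20. For the ETS motif the high-dose medians were -0.40 with and -0.36 without it, and the low-dose medians -0.28 and -0.19. For YY1 the order was the other way, with -0.32 and -0.37 at the high dose and -0.18 and -0.21 at the low dose. None of these differences was tested.

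All values are log2 expression values as deposited, and a change is the difference between group means fitted by limma, with its standard error (SE). Most subunit genes were lower in treated cells than in controls by amounts that were small for each gene. At the low dose 66 of the 73 genes had a change below 0, with a median of -0.20, which corresponds to 87.0% of the control level. At the high dose 69 of 73 were below 0, with a median of -0.36, or 78.1% of the control level. Over all 22109 genes the medians were -0.04 and -0.12, and over the 7550 genes with a mean log2 value of at least 4 they were -0.08 and -0.24. Of all genes 57.4% were below 0 at the low dose and 67.4% at the high dose. Of the 7550 genes the shares were 59.3% and 75.2%, and of the 73 subunit genes 90.4% and 94.5%. In a bulk sample, fewer cells that express a gene and less RNA of it per cell cannot be told apart.

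No single subunit gene passed the test in any comparison. At an adjusted p under 0.05 (limma, Benjamini-Hochberg over all genes), 0 of 73 were called at the low dose, where 3.0% of all genes were called, and 0 of 73 at the high dose, where 0.814% were called. The lowest adjusted p of a subunit gene by limma was 0.188 at the low dose (ATP5F1A) and 0.132 at the high dose (UQCRC2). At an unadjusted p under 0.05, 11 subunit genes were lower and 0 higher at the low dose, where 8.77% of all genes were lower and 5.38% higher. At the high dose 22 were lower (30.1%) and 0 higher, where 11.4% of all genes were lower and 3.03% higher. Among the 50 subunit genes with a mean of at least 4, 9 were lower at the low dose, against 16.8% of all genes of that level. The low-dose share was thus near that of genes of like level. At the high dose 17 of the 50 were lower, against 1510 of the 7550 genes of that level. The count of 22 was 11 without control 1, 12 without control 2 and 4 without high 2, and the count of 11 was 7 without control 1 and 3 without low 3.

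**Figure D1:**
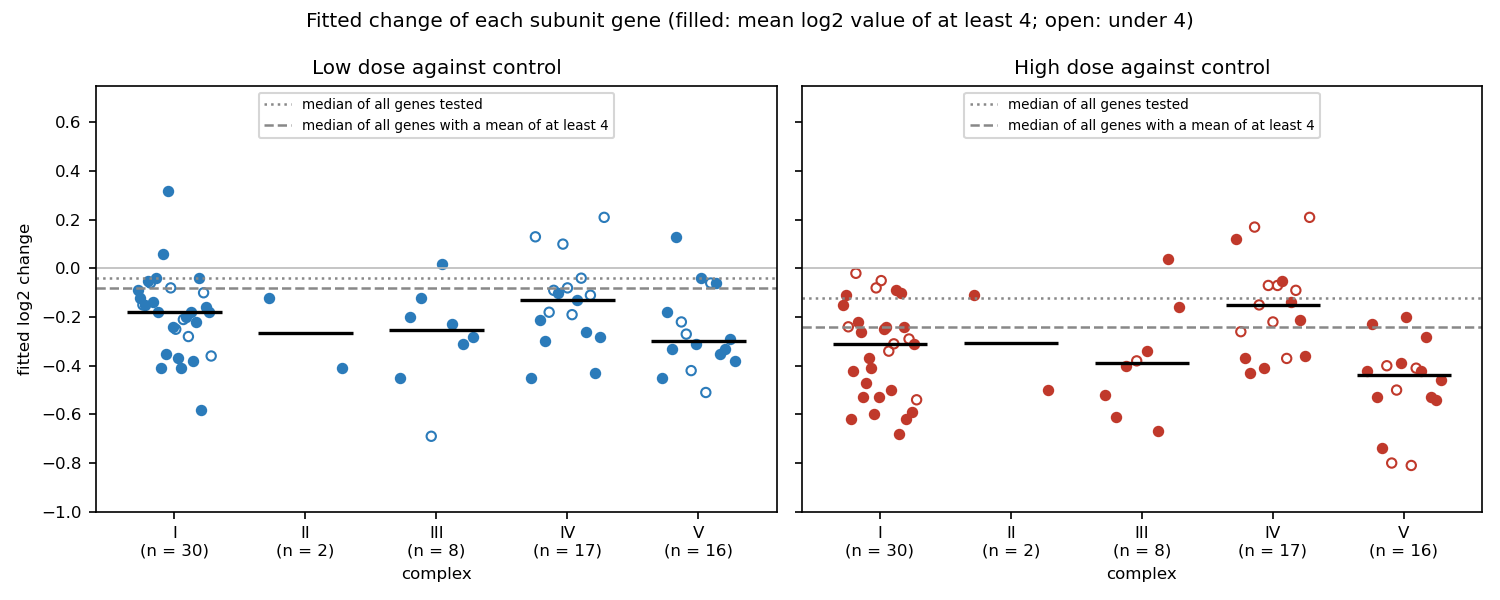
Fitted log2 change of each of the 73 subunit genes by complex, low dose against control on the left and high dose against control on the right; filled points have a mean log2 value of at least 4, black bars are medians of each complex, and grey lines are medians of all genes tested (dotted) and of genes with a mean of at least 4 (dashed). The complex medians at the high dose run from -0.15 (complex IV) to -0.44 (complex V).

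The values of single arrays were also compared. A group of 2 arrays lies apart from 3 controls more easily than a group of 3. The counts of the 2 doses can therefore not be compared directly, and each is set beside its share of all genes. Both high-dose arrays lay below all 3 controls in 46 of the 73 genes (63.0%), where this held for 22.9% of all genes, and above all 3 controls in 0 (7.07% of all genes). All low-dose arrays lay below all controls in 17 genes (23.3%), against 13.0% of all genes, and above all controls in 0 (7.03%). Without control 3 the low-dose count was 32 of 73, with 23.4% of all genes. With 2 low-dose arrays and all 3 controls it was 25 without low 1 (18.8% of all genes) and 23 without low 2 (17.2%). Without low 3 it was 19 lower and 4 higher (16.8% and 16.9% of all genes). Among the 50 subunit genes with a mean of at least 4, the shares were 68.0% at the high dose and 30.0% at the low dose, against 31.8% and 21.4% of all genes of that level. After quantile normalization of the arrays the high-dose count was 29 lower and 3 higher, where 15.4% of all genes were lower and 14.0% higher. With array medians subtracted it was 35 lower and 2 higher, where 15.3% of all genes were lower and 12.4% higher.

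Single arrays carried part of these differences. The 75th percentile of the log2 value over all genes was 4.73 in control 3, 4.54 in low 3 and 4.54 in high 2, and between 4.8 and 4.94 in the other 5 arrays. Low 3 was the lowest low-dose array in 64 of 73 subunit genes (87.7%), and in 60.1% of all genes. Its median distance below the mean of low 1 and low 2 was -0.36 for the subunit genes, -0.18 for all genes and -0.36 for all genes with a mean of at least 4. Without low 3 the median change of the subunit genes at the low dose was -0.08 (all genes -0.01), and 51 of 73 were below 0. Control 3 differed from the mean of controls 1 and 2 by over 0.5 in 11 subunit genes, being higher in 4 and lower in 7. The part of these arrays in the results was not tested further.

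**Figure D2:**
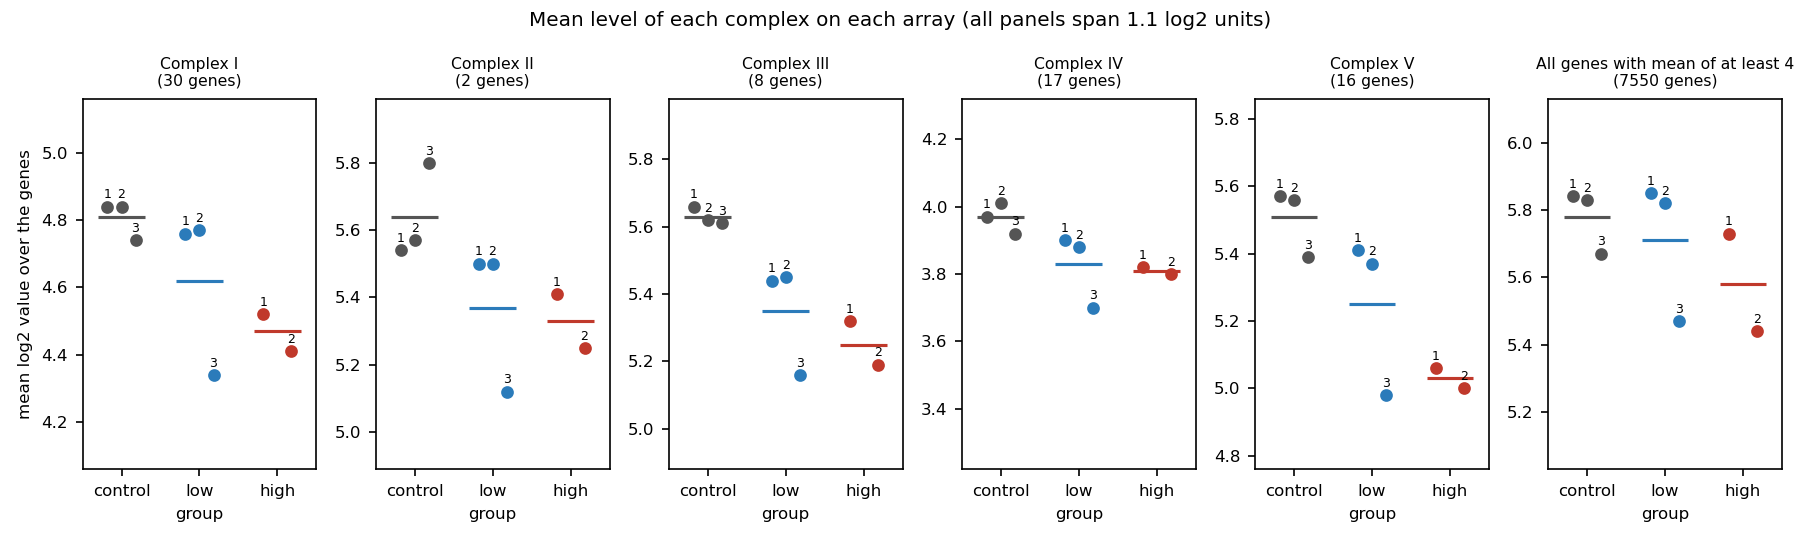
Mean log2 value over the subunit genes of each complex on each array (points, numbered by replicate; horizontal bars are group means), with the mean over all 7550 genes of mean log2 value of at least 4 on the right. In each of the 5 complexes both high-dose arrays lie below all controls, whereas in the panel of all genes high 1 lies above control 3; low 3 is the lowest low-dose array in every panel.

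Markers of the cell line were read on the same scale. Of 7 genes chosen for a mesenchymal breast line, AXL had the highest mean, 9.13, and the collagen-binding SPARC the lowest, 2.12. Of 8 luminal genes, means ran from 1.35 (PGR, the progesterone receptor) to 4.92 (EPCAM), and single values of 5 blood-cell genes ran from 0.87 to 2.63. At the high dose the median change was -0.35 for the mesenchymal genes (5 of 7 below 0), -0.37 for the luminal genes (7 of 8 below 0) and 0.03 for the blood-cell genes. The subunit genes had a median of -0.36. At the low dose the medians were -0.06, -0.21 and 0.16, and none of these markers was called at either dose. AXL (-0.74), CAV1 (-0.65), GATA3 (-0.66) and EPCAM (-0.58), picked after their values were seen, had the most negative high-dose changes. No background signal was used here, so a low value could not be told from absence.

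**Figure D3:**
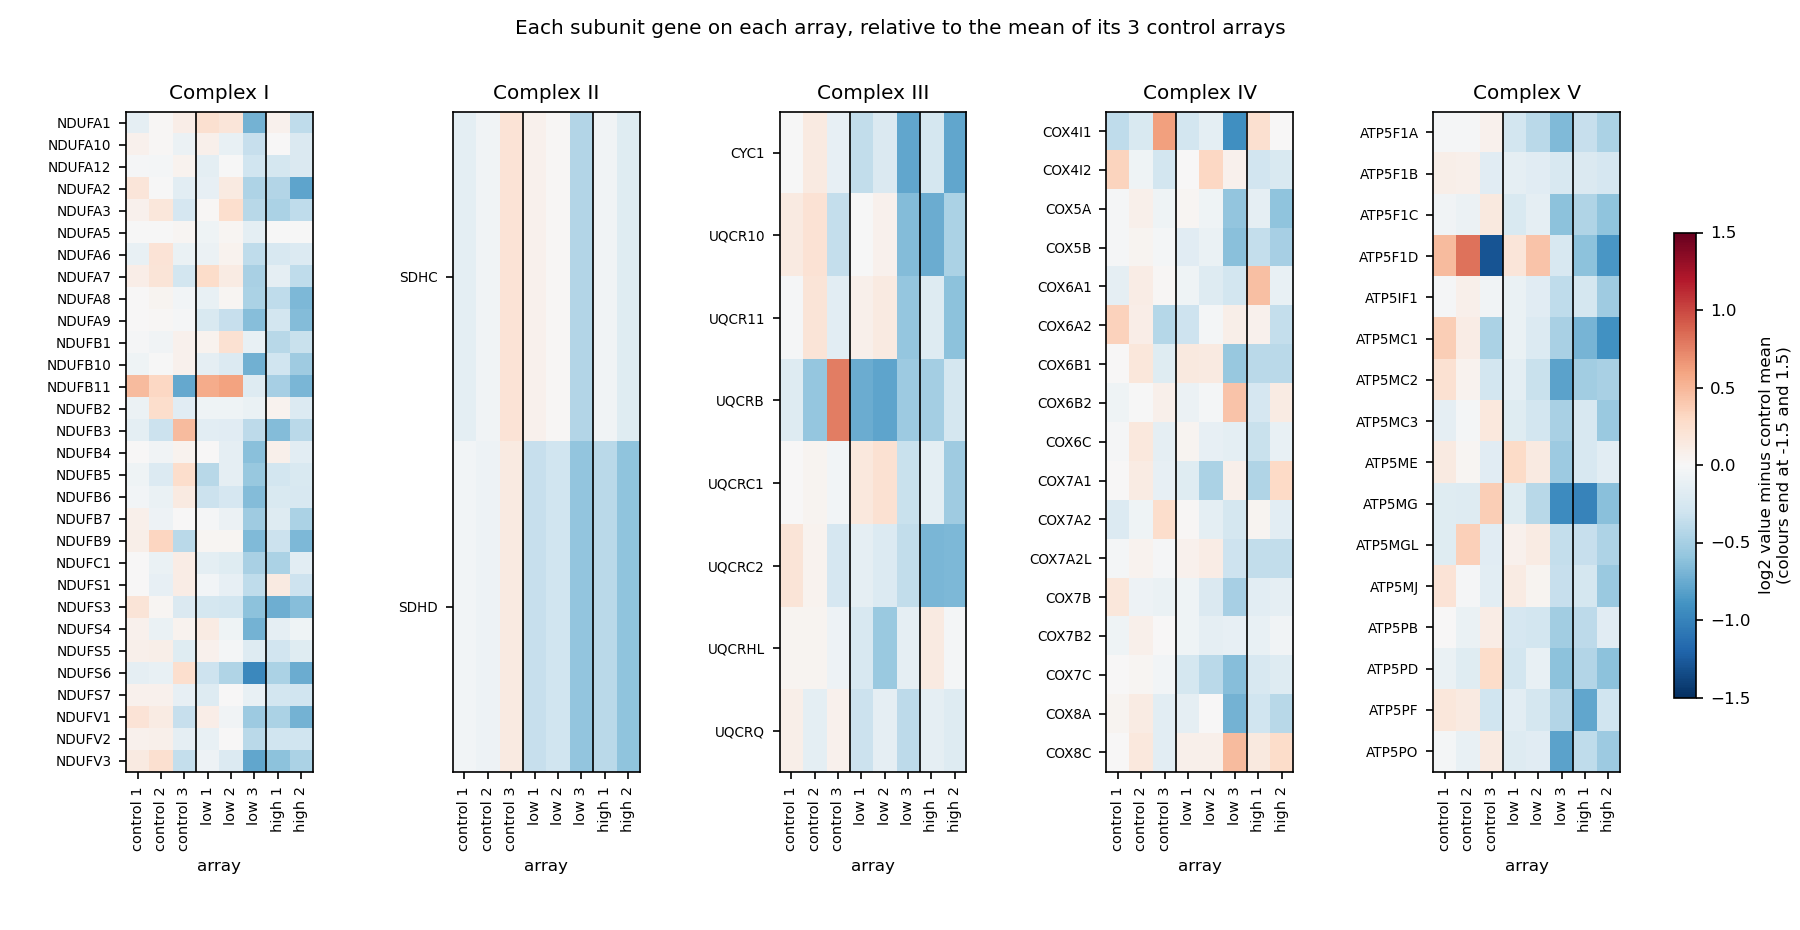
Log2 value of each subunit gene (rows, by complex) on each of the 8 arrays (columns) minus the mean of its 3 controls; blue is lower and red is higher, with the range given by the colour bar. Blue runs through most genes of low 3, high 1 and high 2, and the control 3 column departs in ATP5F1D, NDUFB11, UQCRB and COX4I1.

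Complex I, the NADH dehydrogenase, has a matrix arm that oxidises NADH and carries the iron-sulphur clusters, and a membrane arm that pumps protons. Its 30 measured nuclear genes had a median change of -0.18 at the low dose, with 28 below 0, and -0.31 at the high dose, with 30 below 0. The low-dose median was -0.06 without low 3 and -0.27 without low 2. The averages over the 30 genes were 4.84, 4.84 and 4.74 in the controls, 4.76, 4.77 and 4.34 at the low dose, and 4.52 and 4.41 at the high dose. Both high-dose averages were thus below all controls, whereas at the low dose only low 3 was below all controls. The 14 genes of the matrix arm had a median of -0.30 at the high dose and the 16 of the membrane arm a median of -0.32. Both high-dose arrays lay below all controls in 11 of the former and 9 of the latter, where this held for 22.9% of all genes and 31.8% of those with a mean of at least 4.

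NDUFS3, a core subunit of the matrix arm near the quinone site, had log2 values of 5.63, 5.47 and 5.22 in controls, 5.18, 5.17 and 4.82 at the low dose, and 4.71 and 4.80 at the high dose. The 3 groups did not overlap between control and either dose, and both high-dose values were below all low-dose values. Its change was -0.38 ± 0.17 (SE) at the low dose (limma adjusted p = 0.34) and -0.68 ± 0.19 at the high dose (adjusted p = 0.143, 95% interval -1.1 to -0.27). Without control 3 the high-dose change was -0.79 and was called (adjusted p = 0.0391), as were 4.48% of all genes.

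NDUFS6, a zinc-binding subunit of the NADH-oxidising module, is the first of the genes whose promoter is printed above. It read 5.33, 5.36 and 5.72 in controls, 5.16, 5.02 and 4.50 at the low dose, and 4.99 and 4.72 at the high dose. Every treated array lay below every control. The change was -0.58 ± 0.20 (adjusted p = 0.193) at the low dose, the most negative of complex I, and -0.62 ± 0.23 (adjusted p = 0.245) at the high dose.

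NDUFB11, an accessory subunit of the membrane arm, read 6.52, 6.36 and 5.28 in controls, 6.61, 6.65 and 5.86 at the low dose, and 5.55 and 5.37 at the high dose. Control 3 was lower than both high-dose arrays, so control and high dose overlapped, while both high-dose values were below all 3 low-dose values. The change was 0.32 ± 0.31 (adjusted p = 0.753) at the low dose, the most positive of complex I, and -0.60 ± 0.35 (adjusted p = 0.469) at the high dose. Without control 3 the low-dose change was -0.07.

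Some further complex I genes, picked for their role after their values were seen, had smaller or like changes. NDUFV1, which holds the flavin that accepts electrons from NADH, read 5.36, 5.28 and 4.82 in controls and 4.68 and 4.45 at the high dose, without overlap, and its high-dose change was -0.59 ± 0.23 (adjusted p = 0.276). NDUFS1, the largest subunit of the matrix arm, read 6.86, 6.74 and 6.97 in controls and 6.99 and 6.55 at the high dose. Its groups overlapped and its high-dose change was -0.09 ± 0.19. NDUFA9, the gene with 2 rows, had high-dose changes of -0.47 and -0.47 and low-dose changes of -0.41 and -0.37 on them. NDUFA5, a matrix arm subunit, is counted among the genes whose high-dose arrays lay below all controls, but its values were 3.64, 3.64 and 3.68 against 3.64 and 3.64, a separation beyond the printed decimals.

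Complex II, succinate dehydrogenase, is shared between the respiratory chain and the tricarboxylic acid cycle, and its anchors SDHC and SDHD hold the haem and the ubiquinone site in the membrane. SDHD read 5.41, 5.37 and 5.58 in controls, 5.11, 5.15 and 4.86 at the low dose, and 5.05 and 4.85 at the high dose. All 5 treated arrays were below all controls, with changes of -0.41 ± 0.15 (adjusted p = 0.234) and -0.50 ± 0.17 (adjusted p = 0.218). SDHC read 5.67, 5.77 and 6.02 in controls, 5.89, 5.84 and 5.38 at the low dose, and 5.77 and 5.64 at the high dose. Its groups overlapped at both doses, and its changes were -0.12 ± 0.18 and -0.11 ± 0.20. The low-dose median of the pair, -0.26, was -0.14 without low 3.

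Complex III, the cytochrome bc1 complex, was measured through its core proteins UQCRC1 and UQCRC2, its catalytic haem subunit CYC1, the small subunits UQCRB, UQCRQ, UQCR10 and UQCR11, and UQCRHL. UQCRHL is a near-identical copy of the hinge protein gene UQCRH, so its values are uncertain. The median change of the 8 genes was -0.26 at the low dose and -0.39 at the high dose, with 7 below 0 at each. Without high 2 the high-dose median was -0.22. The averages over the 8 genes were 5.66, 5.62 and 5.61 in controls, 5.44, 5.45 and 5.16 at the low dose, and 5.32 and 5.19 at the high dose. In these averages every treated array lay below every control. Over the 7 genes with a mean of at least 4, which leave out UQCRB, control 3 averaged 5.77. Low 1 (5.78) and low 2 (5.8) then lay above it. Low 3 (5.44) and the high-dose arrays (5.61 and 5.43) lay below all controls.

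UQCRC2 read 8.22, 8.08 and 7.78 in controls, 7.90, 7.83 and 7.66 at the low dose, and 7.35 and 7.36 at the high dose. Both high-dose values were below all other arrays, while low dose and control overlapped. Its high-dose change of -0.67 ± 0.18 had the lowest adjusted p of the 73 genes (limma, 0.132; 95% interval -1.07 to -0.27), and its low-dose change was -0.23 ± 0.16 (adjusted p = 0.607). Without control 3 the high-dose change was -0.79 and was called (limma adjusted p = 0.0291), as were 4.48% of all genes. The partner core protein UQCRC1 read 6.31, 6.35 and 6.27 in controls, 6.47, 6.54 and 5.98 at the low dose, and 6.16 and 5.78 at the high dose. Its high-dose change was -0.34 ± 0.21 (adjusted p = 0.48), and at the low dose, where 2 arrays were above and 1 below all controls, the change was 0.02 ± 0.18.

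CYC1, which passes electrons to cytochrome c, was picked for its role after its values were seen. It read 6.91, 7.05 and 6.80 in controls, 6.55, 6.70 and 6.14 at the low dose, and 6.66 and 6.14 at the high dose. Every treated value was below every control value, and the changes were -0.45 ± 0.20 (adjusted p = 0.318) and -0.52 ± 0.22 (adjusted p = 0.311). UQCRB, a ubiquinone-binding small subunit, had the most negative low-dose change of all 73 genes, -0.69 ± 0.28 (adjusted p = 0.29), from controls of 3.55, 3.16 and 4.51 against 3.00, 2.95 and 3.20. The low-dose group overlapped control 2, and without control 3 the change was -0.30. Its high-dose values of 3.23 and 3.48 gave a change of -0.38 ± 0.32.

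UQCRHL lay within the range of its controls or above it at the high dose, with 5.43, 5.43 and 5.31 in controls and 5.52 and 5.36 at the high dose, a change of 0.04 ± 0.18 (95% interval -0.35 to 0.44). At the low dose it read 5.15, 4.83 and 5.26, below all controls, with a change of -0.31 ± 0.16 (adjusted p = 0.427).

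Complex IV, cytochrome c oxidase, has a core encoded by mitochondrial DNA that is surrounded by small nuclear subunits, several of which exist as widely expressed and tissue-restricted isoforms. Its 17 genes had median changes of -0.13 at the low dose and -0.15 at the high dose, with 14 below 0 at each. The low-dose median was -0.06 without low 3 and -0.20 without low 1, and the high-dose median was -0.23 without control 3 and -0.24 without high 2. The averages over the 17 genes were 3.97, 4.01 and 3.92 in controls, 3.90, 3.88 and 3.70 at the low dose, and 3.82 and 3.80 at the high dose, so that every treated array lay below every control. The 10 widely expressed subunits had medians of -0.24 and -0.22, and the 6 tissue-restricted isoforms, none of which had a mean of at least 4, had medians of 0.01 and -0.08. COX7A2L was placed in neither group and had changes of -0.04 and -0.37. The 8 complex IV genes with a mean of at least 4 had medians of -0.27 and -0.29. Whether complex IV differed from the other complexes was not tested.

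COX4I1, the regulatory subunit that binds ATP, read 6.95, 7.10 and 7.94 in controls, 7.05, 7.18 and 6.41 at the low dose, and 7.57 and 7.33 at the high dose. Control 3 and low 3 lay furthest from their groups, and all groups overlapped with control. The changes were -0.45 ± 0.28 (adjusted p = 0.534) and 0.12 ± 0.31 (adjusted p = 0.902). Without control 1 the high-dose change was -0.07, so its direction rests on single controls.

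COX5B, a zinc-binding subunit on the matrix side whose promoter is printed above, read 4.35, 4.41 and 4.34 in controls, 4.20, 4.27 and 3.74 at the low dose, and 4.01 and 3.87 at the high dose. All treated values were below all controls, which spread by an SD of 0.04 (n = 3). The changes were -0.30 ± 0.17 (adjusted p = 0.494) and -0.43 ± 0.19 (adjusted p = 0.338), the latter the most negative of complex IV.

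COX8C, a testis isoform of the smallest subunit, read 1.14, 1.29 and 0.97 in controls, 1.21, 1.21 and 1.61 at the low dose, and 1.28 and 1.40 at the high dose. Its values overlapped between control and both doses, and its changes of 0.21 ± 0.17 and 0.21 ± 0.19 (adjusted p = 0.67 and 0.658) were the most positive of complex IV. COX8A, its widely expressed counterpart, was added for comparison after its values were seen. It read 8.60, 8.68 and 8.40 in controls, 8.43, 8.57 and 7.85 at the low dose, and 8.26 and 8.14 at the high dose, with changes of -0.28 ± 0.20 and -0.36 ± 0.22. The widely expressed COX6A1 was listed at 0.94 to 1.67 on the 8 arrays, among the dim rows, and its changes are given only as -0.18 and 0.17.

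Complex V, the ATP synthase, consists of the catalytic F1 head, the rotating c-ring, a peripheral stalk and small membrane subunits, with ATP5IF1 as an inhibitor of ATP hydrolysis. Its 16 genes had median changes of -0.30 at the low dose, with 15 below 0, and -0.44 at the high dose, with 16 below 0. Without low 3 the low-dose median was -0.18. The averages over the 16 genes were 5.57, 5.56 and 5.39 in controls, 5.41, 5.37 and 4.98 at the low dose, and 5.06 and 5.00 at the high dose. Both high-dose averages lay below all controls, while low 1 was within the control range and low 2 just below it. Both high-dose arrays were below all controls in 13 of the 16 genes, against 22.9% of all genes. This held for 8 of the 11 genes with a mean of at least 4 (72.7%), against 31.8% of all genes of that level.

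The sub-assemblies of complex V had high-dose medians of like size. The 4 measured F1 genes had a high-dose median of -0.48, the 3 c-ring genes -0.50, the 4 stalk genes -0.50 and the 4 membrane accessory genes -0.42. At the low dose the medians were -0.26, -0.31, -0.34 and -0.06. ATP5IF1, the inhibitor, had changes of -0.22 and -0.40.

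ATP5F1D, the delta subunit of the F1 central stalk, read 7.04, 7.39 and 5.27 in controls, 6.75, 7.00 and 6.33 at the low dose, and 5.96 and 5.70 at the high dose. Control 3 was below every other array, so the control group had an SD of 1.14 (n = 3) and overlapped both doses, while both high-dose values were below all low-dose values. The changes were 0.13 ± 0.44 (adjusted p = 0.95) and -0.74 ± 0.49 (adjusted p = 0.523). Without control 3 the low-dose change was -0.52. The high-dose change was then -1.38 and was called (limma adjusted p = 0.00981), as were 4.48% of all genes.

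ATP5MG, the g subunit of the membrane part, had the most negative high-dose change of the 73 genes, -0.81 ± 0.26 (adjusted p = 0.186; 95% interval -1.38 to -0.25). It read 3.93, 3.92 and 4.48 in controls, 3.93, 3.69 and 3.17 at the low dose, and 3.11 and 3.48 at the high dose. Both high-dose values were below all controls, and the low-dose change was -0.51 ± 0.23 (adjusted p = 0.347) with overlap.

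The catalytic and c-ring genes were added for their role after their values were seen. ATP5F1A, the alpha subunit, read 8.29, 8.29 and 8.37 in controls, 8.04, 7.91 and 7.65 at the low dose, and 7.96 and 7.83 at the high dose. Every treated array was below every control, with changes of -0.45 ± 0.15 and -0.42 ± 0.17. ATP5F1B, the catalytic beta subunit, read 10.07, 10.06 and 9.81 in controls, 9.84, 9.81 and 9.74 at the low dose, and 9.76 and 9.73 at the high dose, with changes of only -0.18 ± 0.15 and -0.23 ± 0.16. ATP5MC1, 1 of 3 genes that encode the same mature c-ring protein, read 4.13, 3.87 and 3.28 in controls and 3.06 and 2.85 at the high dose, without overlap, a change of -0.80 ± 0.24 (adjusted p = 0.17). Without control 3 ATP5MC1 was called (-1.05, limma adjusted p = 0.0154), as were 4.48% of all genes. Its low-dose change was -0.27 ± 0.22. ATP5MC3, the brightest of the 3 (mean 5.33, against 3.46 for ATP5MC1), had changes of -0.31 and -0.39, and ATP5MC2 had -0.42 and -0.50.

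**Figure D4:**
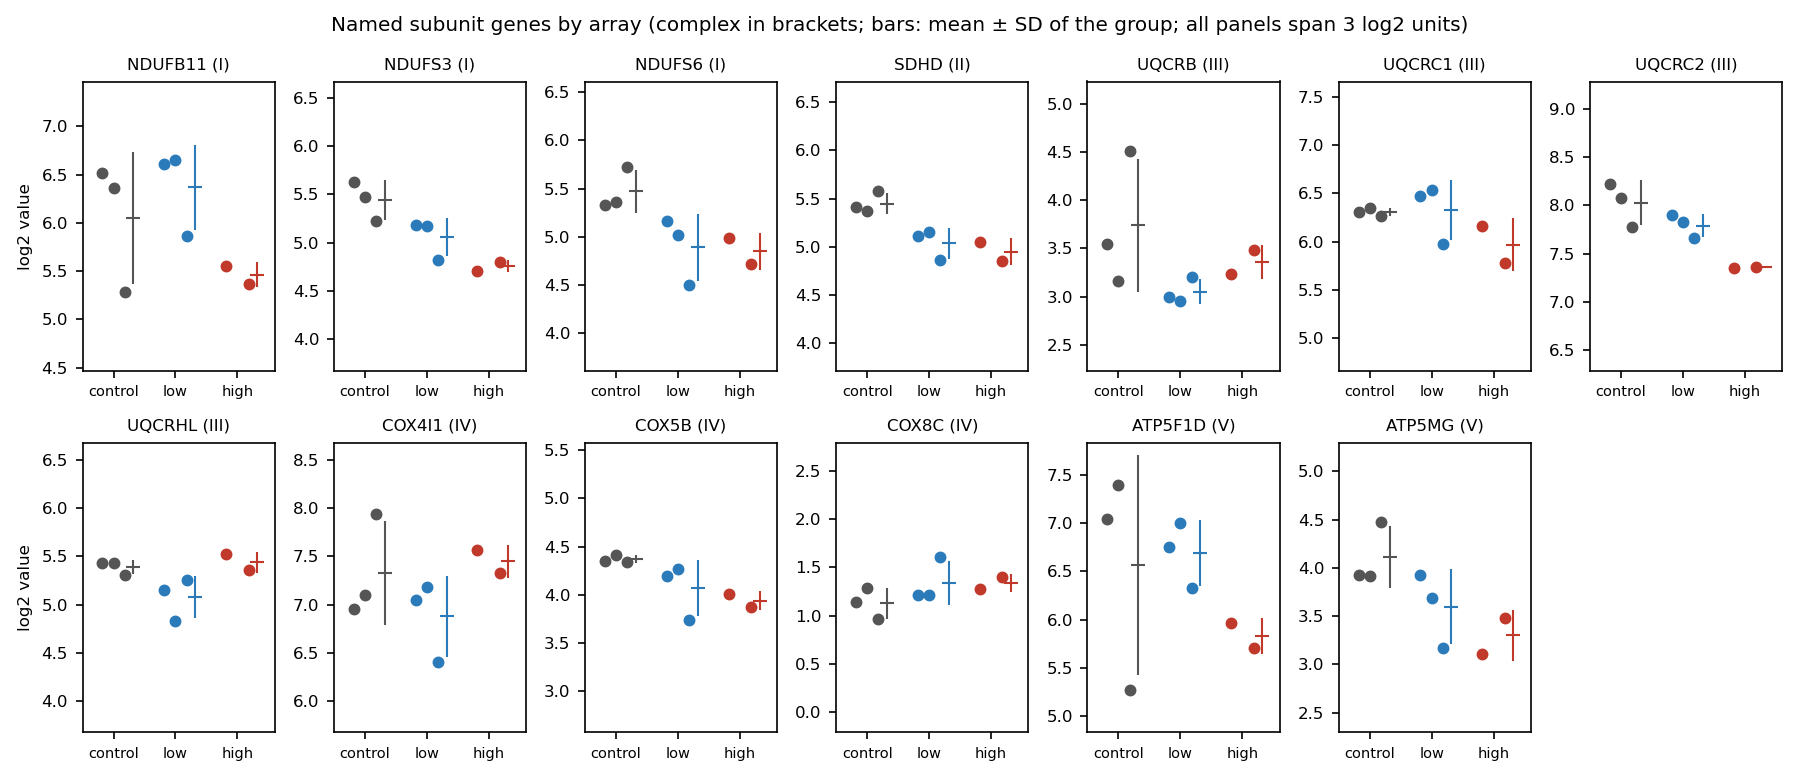
Log2 values of the 13 subunit genes named by rule, 1 point per array in the order of the replicates, with bars giving the mean ± SD of each group (control and low n = 3, high n = 2); every panel spans the same range. NDUFS3, NDUFS6, SDHD and COX5B have all treated points below all control points, and ATP5F1D and NDUFB11 have 1 control far below the other controls.

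High dose was also compared with low dose. No subunit gene was called (0 of 73; 0.00452% of all genes were called), and the lowest adjusted p by limma was 0.519, for NDUFB11 at -0.91 ± 0.35. At an unadjusted p under 0.05, 4 subunit genes were lower at the high dose (6.1% of all genes were lower) and 0 higher (2.56%). These 4 were NDUFB1 (-0.43), NDUFB11 (-0.91), UQCRC2 (-0.44) and ATP5MC1 (-0.54). The median change was -0.09, against -0.07 over all genes. Of the 73 genes 52 were below 0 (71.2%), against 61.6% of all genes and 68.5% of those with a mean of at least 4. Both high-dose arrays lay below all low-dose arrays in 10 genes (13.7%, against 16.7% of all genes) and above them in 5 (8.77% of all genes). After quantile normalization the median was 0.00 and 36 of 73 were below 0, so no direction held. Without low 3 the median was -0.25, and 46 of 73 had both high-dose arrays below low 1 and low 2 (36.9% of all genes). Since the treated groups share the same controls, their changes against control are given side by side and were not correlated.

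The treated-against-control direction held in each scaling that was tried, though its size did not. With quantile normalization the median of the 73 genes was -0.15 at the low dose, with 62 below 0, and -0.16 at the high dose, with 54 below 0. The medians over all genes were then -0.00 and -0.02. With array medians subtracted the subunit medians were -0.19 and -0.26, against -0.03 and -0.02 over all genes.

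**Figure D5:**
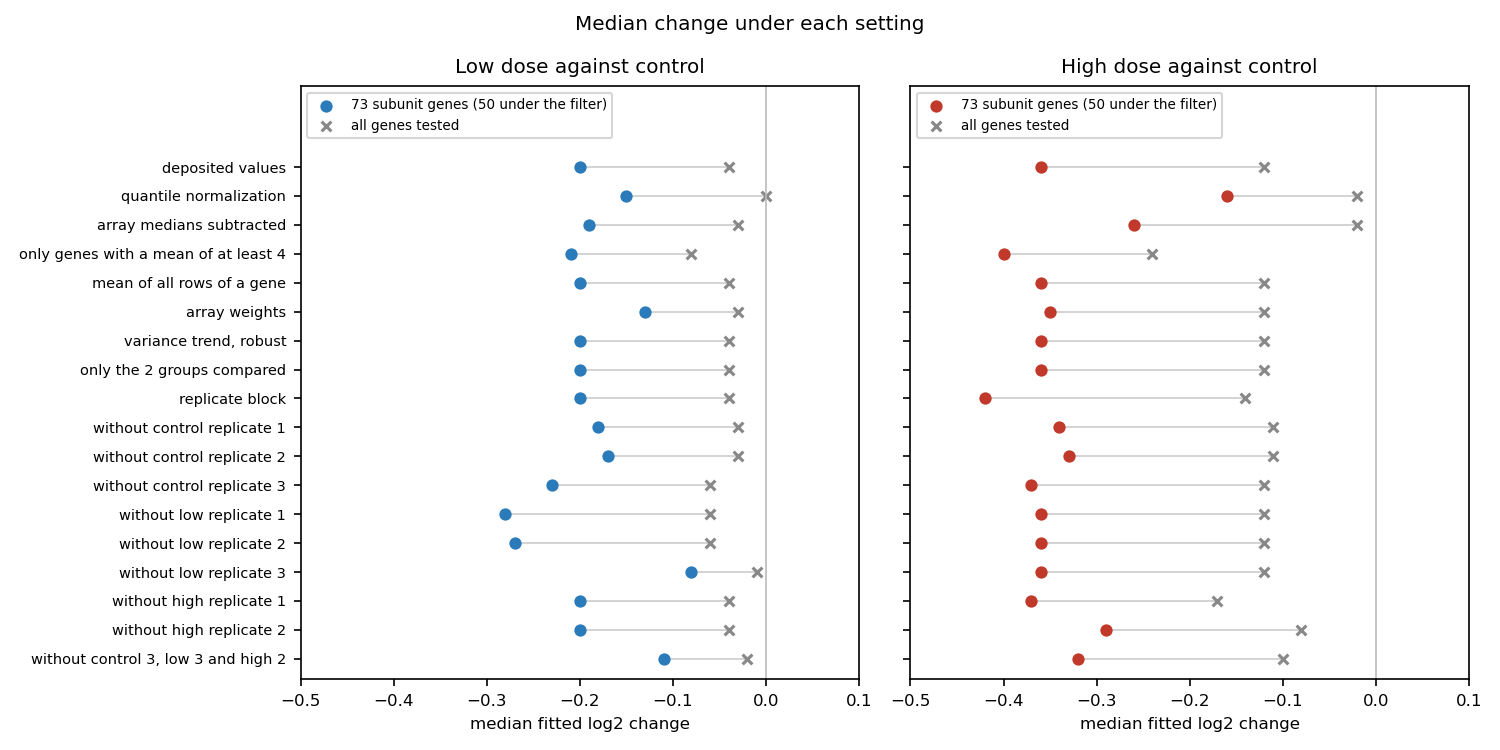
Median fitted log2 change of the subunit genes (filled circles) and of all genes tested (crosses) under the deposited values and each alternative, for low dose (left) and high dose (right) against control. The subunit median lies below the median of all genes under each setting, closest at the low dose without low 3 (-0.08 and -0.01).

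The genes that build and serve these complexes were examined next, from lists of assembly factors, carriers, regulators and tricarboxylic acid cycle enzymes. Of the 80 measured, 1 was called at the low dose, where 3.0% of all genes were called, and 0 at the high dose, where 0.814% were. At an unadjusted p under 0.05, 20 were lower at the low dose and 15 at the high dose by limma, and 0 were higher at either. Over all genes 8.77% were lower at the low dose and 11.4% at the high dose. Of the 7550 genes with a mean of at least 4, 1271 (16.8%) were lower at the low dose and 1510 at the high dose. The lists were not split by level, so a shift of their own was not shown by these counts. The called gene was COA1, an assembly factor of the inner membrane linked to complexes I and IV. It read 5.78, 5.78 and 5.82 in controls, 5.29, 5.09 and 4.58 at the low dose, and 5.22 and 5.01 at the high dose. All treated arrays were below all controls, and COA1 fell by 0.81 on the log2 scale at the low dose (SE 0.19, limma adjusted p = 0.0455). The call was lost in 9 of 17 alternatives, among them leaving out control 1, control 2, control 3, low 2, low 3, high 1 or high 2, with changes of -0.86 to -0.61. The high-dose change was -0.68 ± 0.21 (adjusted p = 0.181).

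The medians of the assembly factors were also below 0. All 16 complex I assembly genes were measured, with medians of -0.27 and -0.29 at the low and high dose, 1 called lower (COA1) and 0 called higher. The 4 of complex II had medians of -0.14 and -0.46, the 6 of complex III -0.31 and -0.46, 19 of 23 of complex IV -0.28 and -0.30, and 3 of 4 of complex V -0.23 and -0.45, with 0 called in either direction.

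The largest changes of those lists are given by name. LYRM7, which hands the Rieske protein to complex III, had a low-dose change of -1.04 ± 0.28 (adjusted p = 0.0783) and read 3.78, 4.17 and 5.04 in controls against 3.59, 3.21 and 3.06. COA4, a factor of complex IV assembly, had a high-dose change of -0.82 ± 0.19 (adjusted p = 0.082), with 5.53, 5.51 and 5.60 in controls against 4.84 and 4.62. Neither pair of groups overlapped, and neither change passed the test with all arrays. LYRM7 was called without control 1 (-1.32, limma adjusted p = 0.0363), as were 1.75% of all genes. COA4 was called without low 3 (-0.82, limma adjusted p = 0.0444), as were 1.0% of all genes. With single arrays left out, the change ranged from -1.32 to -0.69 for LYRM7 and from -0.93 to -0.71 for COA4. UQCC2 (-0.73), NDUFAF3 (-0.85) and SDHAF2 (-0.65) at the high dose, SDHAF3 (-0.61) and COX18 (-0.67) at the low dose, and ATPAF1 (-0.55 and -0.63) at both doses were the largest of their lists and were not called. Without control 3 NDUFAF3 was called at the high dose (-1.13, limma adjusted p = 0.0105), as were 4.48% of all genes. Its change ranged from -1.13 to -0.69 with single arrays left out.

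NDUFAB1, the mitochondrial acyl carrier protein that also sits in complex I, had changes of -0.57 ± 0.17 and -0.54 ± 0.19 (adjusted p = 0.124 and 0.231), and cytochrome c (CYCS) had -0.30 and 0.12. Of 18 regulators of mitochondrial biogenesis, 0 were called and the medians were -0.17 and -0.21. TFAM, which packages and transcribes mitochondrial DNA, had the largest low-dose change, -0.51 ± 0.15 (adjusted p = 0.115), and ESRRA, an orphan nuclear receptor that controls many of these genes, the largest high-dose change, -0.45 ± 0.23. Of 14 tricarboxylic acid cycle genes 12 were measured, 0 were called, and the medians were -0.20 and -0.35. SUCLA2 (-0.65 ± 0.20 at the low dose) and IDH3G (-0.53 ± 0.30 at the high dose) had the largest changes. Without control 3 IDH3G was called at the high dose (-0.88, limma adjusted p = 0.032), as were 4.48% of all genes. Its change ranged from -0.88 to -0.32 with single arrays left out. The 13 subunits encoded by mitochondrial DNA were not analysed here, so the counts speak for the nuclear genes.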

How the data were processed

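RNA of 8 samples was measured on 8 arrays, grouped by title. The authors deposited log2 expression values per probe set, made with the Transcriptome Analysis Console per the submitters' processing notes; its version and the normalization: not given in the sources used here. That they are log2 was read from their range (highest 12.1, above 11.09, the natural logarithm of a 16-bit ceiling). Of 53617 rows, 23558 carried 1 symbol in the platform annotation, 2155 several and 27904 none; the brightest row of each gene gave 22109 genes. Values were used as deposited.

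The model had 1 mean for each group, with all 8 arrays in the fit, in limma 3.58.1 (R 4.3.3; lmFit, contrasts, eBayes; 5 residual and 6.0 prior degrees of freedom), with Benjamini-Hochberg adjustment over all genes and calls at 0.05. The number of arrays limits the precision. The scripts were tested on simulated data. The members and gene lists were chosen with earlier results of these data known. Subunits were named if called or if they had the largest rise or fall of their complex at a dose; others are said to be so. Sub-assemblies of complexes were grouped from textbook knowledge after values were seen. In 17 alternatives the normalization, filter, rows, weights, variance model, groups, replicate block or arrays were changed.

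Deviations of same-numbered arrays from their group means correlated at 0.103, 0.153 and 0.203 between control and low dose. Between control and high dose they correlated at 0.094 and -0.049, and between low and high dose at 0.214 and -0.177. With 2 high-dose arrays, their deviations are equal with opposite sign. Of arrays that differ in number, control 1 and low 2 correlated at 0.122, and low 3 and high 2 at 0.274. These values cannot settle whether the numbers pair arrays. The main model had no block, and the replicate block was an alternative.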

Additional observations from a re-analysis of the deposited data

Results flagged for a closer look

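COX4I2, the isoform of the complex IV subunit 4 that is known for its expression in lung, had group means on opposite sides of the control mean at the 2 doses: its low-dose arrays (3.22, 3.52 and 3.28) were all above the control mean and its high-dose arrays (2.92 and 2.98) all below it. The controls themselves read 3.54, 3.15 and 2.94 and spanned the values of both doses except 2.92. Neither change against control passed the test (0.13 and -0.26; limma adjusted p = 0.846 and 0.592), and without control 3 they were -0.01 and -0.40. The difference of -0.39 between high and low dose was not called (limma adjusted p = 0.616).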

How the results depend on the processing

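Of 705 alternative values of the named genes, 656 kept their direction and side of the threshold, 30 newly passed it (17 of them in the assembly, carrier, regulator and cycle lists, such as LYRM7, COX18, NDUFAB1 and TFAM at the low dose with array weights), 9 lost the call (COA1) and 10 changed sign. Low-dose counts of called subunits stayed at 0. At the high dose 3 were called with array weights (NDUFS3, UQCRC2, ATP5MC1; 4.11%, where 4.54% of all genes were called), 4 without control 3 (those and ATP5F1D; 5.48%, against 4.48%; range 0 to 4 over single arrays left out), and 9 (12.3%, against 7.07%) without control 3, low 3 and high 2, a setting chosen after seeing the data that leaves 1 high-dose array, assumed to vary like the other groups. High against low dose, that setting called 1 (NDUFB11; 0.995% of all genes).

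When same-numbered arrays were paired as a replicate block, 8 subunits were called at the high dose (NDUFB11, NDUFS3, NDUFV1, NDUFV3, UQCR10, UQCRC2, ATP5MC1, ATP5MC2; 11.0%, against 5.55% of all genes), 1 in high against low dose (NDUFB11), and 0 at the low dose. It changed the call of no other subunit. Calls over all genes went from 664 to 1059 at the low dose, 180 to 1228 at the high dose and 1 to 219 in high against low dose. Whether arrays of the same number belong together is not settled in any of the groups. The complex III median in high against low dose was then -0.30.

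At the low dose the medians moved to -0.06 (complex II, without control 3, low 3 and high 2) and -0.27 (complex IV, genes with a mean of at least 4). At the high dose quantile normalization gave -0.16 for all subunits and -0.14, -0.07, -0.22 and -0.06 for complexes I to IV. Complex IV was -0.05 with array medians subtracted, -0.29 with the level filter and -0.23 with array weights, and complex III -0.22 without control 3, low 3 and high 2. With single arrays left out, high-dose medians ranged from -0.51 to -0.22 (complex III) and -0.24 to -0.12 (complex IV). High against low dose, quantile normalization gave 0.01, 0.09, -0.05 and 0.02 for complexes I to IV, array medians subtracted 0.04 (II) and 0.02 (IV), and array weights -0.33 (III). With single arrays left out these ranged from -0.25 to -0.04 (all subunits), -0.17 to 0.04 (II) and -0.36 to 0.04 (III), with signs turned for II without low 1 (0.02), low 2 (0.02) or high 2 (0.04) and for III without high 2 (0.04).

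Low-dose signs turned, with ranges over single arrays left out, for NDUFB11 (-0.07 without control 3; -0.07 to 0.58), UQCRC1 (-0.05 and -0.09 without low 1 or low 2; -0.09 to 0.19), COX4I1 (0.09 without control 3, low 3 and high 2) and ATP5F1D (-0.20 with array weights, -0.52 without control 3, -0.03 without low 2, -0.34 without control 3, low 3 and high 2; -0.52 to 0.54). High-dose signs turned for UQCRHL (-0.04 without high 1; -0.04 to 0.12) and COX4I1 (-0.07 without control 1; -0.07 to 0.42). The cause was not tested. At an unadjusted p under 0.05, over single arrays left out, counts of lower subunits ranged from 4 to 29 at the high dose and from 3 to 11 at the low dose. With 2 high-dose arrays and no background measure, dim genes and small changes were not resolved.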
